A study of Mus musculus with 6 samples.

Results

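The 10 genes described here are solute carriers of the endosomal and lysosomal membrane, found by symbol in a table of 55335 mouse genes. They are *Slc9a9*, *Slc46a3*, *Slc11a1*, *Slc15a3*, *Slc15a4*, *Slc29a3*, *Slc36a1*, *Slc37a2*, *Slc17a5* and *Slc38a9*. The group was put together because *Slc9a9* and *Slc46a3* were much higher in one group of libraries. These 2 were thus chosen by the same FPKM that are reported here, so the values of both are given as a description without a test. The other 8 were added for where their proteins are known to work. RNA was sequenced from 6 libraries of bone marrow-derived macrophages (BMDMs), cells of *Cd177* WT genotype grown from mouse bone marrow for 7 days in 25 ng/ml M-CSF. By their labels, 3 were kept for 24 h in co-culture with neutrophils of *Cd177* WT mice and 3 with neutrophils of *Cd177* KO mice, both isolated by MACS from the injured spinal cord at 3 dpi. In both groups, BMDMs were then sorted as Ly6G- cells. The methods name adult male C57BL/6 mice and a direct co-culture, and *Cd177*-/- mice as the source of the KO neutrophils. Neither the labels nor the methods say whether animals were pooled or whether replicates came from separate cultures, so p-values measure the spread between these libraries, which may be technical. No library of BMDMs without neutrophils was analysed here.

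The carriers move small molecules across the membranes of endosomes, phagosomes and lysosomes, the compartments in which macrophages digest what they take up. Most of them run on the proton gradient that the vacuolar ATPase builds, and bring amino acids, peptides, nucleosides, sialic acid or metal ions from the lumen to the cytosol. Some are also known to take part in signalling: *Slc38a9* and *Slc36a1* in the activation of mTORC1 by amino acids, and *Slc15a3*, *Slc15a4* and *Slc29a3* in responses of endosomal Toll-like receptors and NOD receptors.

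Levels are given as FPKM, the number of sequenced fragments scaled to transcript length and to the total of the library, which can be compared between genes. Differences are log2 fold changes of FPKM + 0.5, labelled KO minus labelled WT, on which changes of low genes come out too small. They were tested with limma (two-sided, Benjamini-Hochberg adjusted over 13367 genes whose mean reached 0.5 FPKM), and a gene was called at an adjusted p-value under 0.05. All 10 carriers passed this filter. The median log2 fold change of all tested genes was 0.19 as deposited and -0.01 after median-of-ratios scaling between libraries, so the sign of a difference of that size depends on the scaling. The columns summed to between 302532 and 340717 FPKM, and the low values implied about 17600000 to 20300000 fragments per library.
*Cd177* itself had 0.544, 0.309 and 0.521 FPKM in the WT-labelled libraries and 1.79, 1.84 and 2.28 FPKM in the KO-labelled ones. The sequenced BMDMs carry the intact gene, so this does not check their genotype, but the level goes against the labels and groups are named as labelled throughout. Macrophage markers were present in all libraries, with a summed level of 7977 to 9882 FPKM in those labelled WT and 8415 to 9188 FPKM in the KO-labelled ones for 12 genes, most of it from *Lyz2*. Of these 12, 3 rose and 3 fell (50%, against 37.6% of all tested genes). Those that fell were *Cd14* with a mean of 1009.5 and 99.4 FPKM, *Fcgr1* with 121 and 33.8 FPKM and *Lgals3* with 1347.5 and 857.8 FPKM. Those that rose were *Trem2* with 86.3 and 138.2 FPKM, *Mertk* with 19.3 and 31.9 FPKM and *Adgre1* with 241.1 and 296.9 FPKM. Neutrophil markers (18 genes) summed to 203 to 263 FPKM and 561 to 575 FPKM. Of these, 13 were tested, 11 were higher and 1 was lower in the KO-labelled libraries (92.3%, against 37.6% of all tested genes). *Ly6g* was listed at 0 in all WT-labelled libraries. Lymphocyte markers (9 genes) summed to 2.15 to 3.33 and 18.7 to 20.5 FPKM, with *Cd3d* listed at 0 in all libraries. Dendritic cell markers (7 genes) stayed between 0.314 and 1.24 FPKM in sum, with *Flt3* at 0. Spinal cord and microglia markers (9 genes) summed to 15.6 to 18.2 and 17.3 to 22.5 FPKM, with *Snap25*, *Olig2* and *Aqp4* at 0. Of its microglial genes, *P2ry12* had a mean of 0.217 and 5.40 FPKM, *Tmem119* of 11.004 and 8.73 FPKM and *Sall1* of 0.0138 and 0.00308 FPKM. The part of other cells' RNA in the levels of the carriers was not tested, and in bulk RNA fewer cells of a type and less RNA per cell cannot be told apart.

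The carriers did not move as a group. Of the 8 that were not chosen for their rise, 2 rose (*Slc17a5* and *Slc15a4*), 1 fell (*Slc15a3*) and 5 did not pass the test. This is 37.5% of them, while 37.6% of all tested genes passed, 27.1% upward and 10.5% downward (15.3% and 16.96% with median-of-ratios scaling), so the share is close to the background. Their median log2 fold change was 0.34, beside 0.19 for all tested genes. It was 0.15, 0.16 and 0.18 after scaling by median-of-ratios, upper quartile and quantiles, and 0.19 without WT replicate 2. In the other direction, it was 0.46 without WT replicate 1 and 0.41 with TPM. With median-of-ratios scaling 2 rose and 2 fell, *Slc11a1* being added. For 6 of the 8 the ranges of the groups lay apart, a larger share than the 51.9% of all tested genes. With 8 genes, this difference in shares was not tested.

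**Figure D1:**
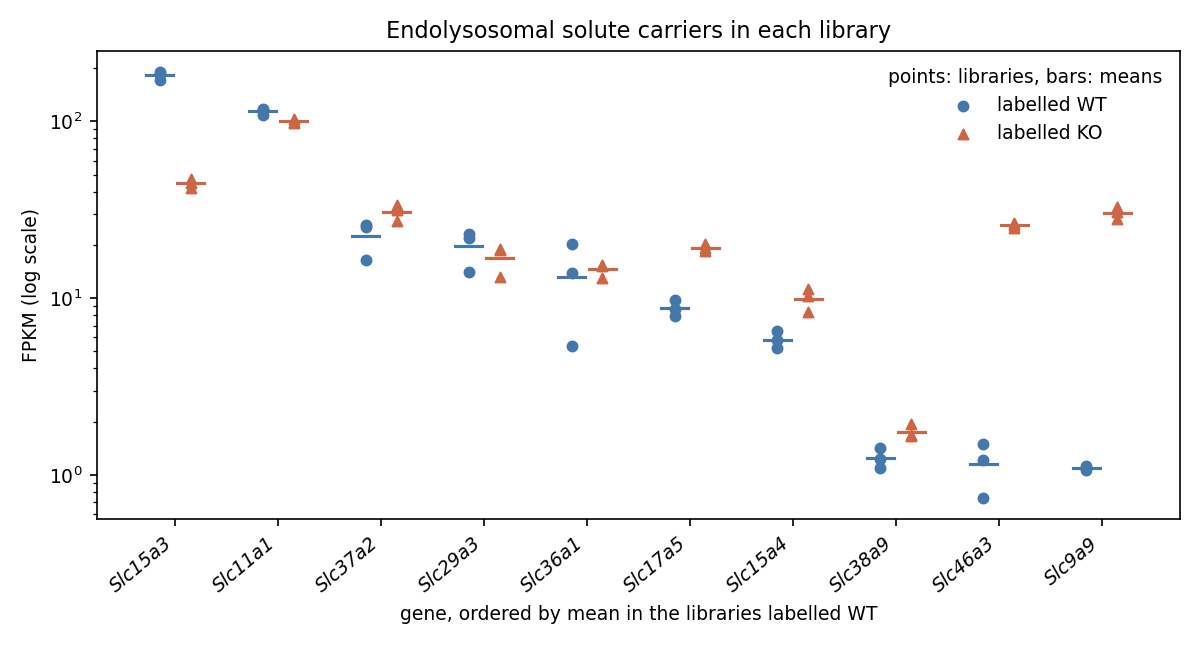
FPKM of the 10 carriers in each library on a log axis, with circles for the 3 libraries labelled WT, triangles for the 3 labelled KO and bars for the means. *Slc9a9* and *Slc46a3* went from about 1 FPKM to between 25.1 and 32.7 FPKM, *Slc15a3* went from 183 to 44.6 FPKM on average, and the groups overlapped in *Slc29a3* and *Slc36a1*.

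*Slc9a9* (ENSMUSG00000031129, chromosome 9 from 94669909 to 95230445 in GENCODE M21, GRCm38) encodes a sodium/proton exchanger of endosomes, which lets protons out of their lumen. It had 1.07, 1.10 and 1.12 FPKM in the WT-labelled libraries and 30.6, 32.7 and 27.95 FPKM in the KO-labelled ones. Every KO-labelled library was far above every WT-labelled library, and the means of 1.10 ± 0.0268 and 30.4 ± 2.40 FPKM (SD, n = 3 each) differ by a factor of 27.8. *Slc46a3* (ENSMUSG00000029650, chromosome 5 from 147878437 to 147894815) encodes a lysosomal carrier known for exporting the drug catabolites of antibody conjugates. It had 1.22, 1.51 and 0.740 FPKM in the WT-labelled libraries and 26.5, 25.1 and 25.9 FPKM in the KO-labelled ones. Here too the groups lay far apart, with means of 1.15 ± 0.386 and 25.8 ± 0.693 FPKM (SD, n = 3 each) and a ratio of 22.4. At the depth implied by the low values, the WT level of *Slc46a3* rests on about 60, 70 and 30 fragments and that of *Slc9a9* on about 120, 110 and 110.
Among the 180 tested genes with a numbered *Slc* symbol, *Slc9a9* and *Slc46a3* ranked 162 and 160 by mean level in the WT-labelled libraries and 16 and 22 in the KO-labelled ones. Among these tested genes, both were therefore near the low end in one group and among the more abundant in the other. Genes below the filter are not in this ranking. Of 351 other *Slc* genes, 170 were tested and 59 were listed at 0 in all libraries. On the log2 scale the difference was 4.27 for *Slc9a9* and 4.02 for *Slc46a3*, the first and second largest of these 180 genes, which is the property they were chosen for. Under the 16 alternatives the 2 differences ranged from 3.90 to 4.67 and from 3.65 to 4.42. These ranges are a description only, since both genes were chosen for the size of their rise.

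The promoters of both genes differ in base composition, and that of *Slc17a5*, the carrier with the next largest difference upward, is shown beside them. The sequences are the 250 bases before the RefSeq start site (GRCm38.p6), 5′ to 3′ on the strand of the gene, at chr9:94669642-94669891 (plus strand), chr5:147894816-147895065 (minus strand) and chr9:78588046-78588295 (minus strand). Capitals mark CG dinucleotides, of which the 3 hold 3, 20 and 14.
Slc9a9: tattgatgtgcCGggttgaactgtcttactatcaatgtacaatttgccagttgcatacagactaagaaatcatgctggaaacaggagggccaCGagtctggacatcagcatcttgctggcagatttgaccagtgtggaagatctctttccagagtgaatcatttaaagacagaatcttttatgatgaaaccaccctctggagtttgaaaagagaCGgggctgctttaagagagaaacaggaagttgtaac
Slc46a3: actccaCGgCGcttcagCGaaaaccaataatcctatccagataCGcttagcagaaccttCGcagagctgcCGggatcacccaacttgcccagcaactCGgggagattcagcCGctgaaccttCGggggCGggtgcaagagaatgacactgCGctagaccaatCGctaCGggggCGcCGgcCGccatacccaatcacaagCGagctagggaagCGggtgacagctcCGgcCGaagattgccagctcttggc
Slc17a5: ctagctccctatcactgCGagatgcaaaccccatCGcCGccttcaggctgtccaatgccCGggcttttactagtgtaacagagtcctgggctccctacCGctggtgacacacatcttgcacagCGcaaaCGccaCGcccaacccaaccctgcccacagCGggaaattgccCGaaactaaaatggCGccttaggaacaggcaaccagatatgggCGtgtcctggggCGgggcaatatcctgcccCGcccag
The median of 32851 promoters is 6 CG dinucleotides and 52.4% G + C. *Slc9a9* lies below it with 42.8% G + C, and *Slc46a3* and *Slc17a5* lie above it with 60% and 59.6%. The 2 genes with the largest differences thus have promoters on opposite sides of the median. The 9 carriers with a promoter in the table were searched on both strands for 5 motifs. CACGTG, the core of the element bound by MiT/TFE factors, was found once, in *Slc36a1*, and in 6.02% of all promoters. Its longer form TCACGTGA, which contains it, was found in none of the 9 and in 0.785% of all. TGANTCA, an AP-1 type motif, was found in *Slc9a9*, starting 96 bases before the start site, and in *Slc37a2*, and in 6.75% of all. GAGGAA, the core of a PU.1 site, was found in *Slc11a1* and *Slc37a2* (23.3% of all), and GAAANNGAA, an interferon response type motif, in *Slc38a9* (7.13% of all). A match is a string of letters and not a bound site.

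The proton-coupled carriers of peptides and histidine, *Slc15a3* and *Slc15a4*, moved in opposite directions. *Slc15a3* (ENSMUSG00000024737, chromosome 19 from 10839727 to 10859362) stood at 186, 190.0 and 172 FPKM in the WT-labelled libraries and 47.2, 44.6 and 41.8 FPKM in the KO-labelled ones. It fell in all 3 KO-labelled libraries, from 183 ± 9.59 to 44.6 ± 2.68 FPKM (SD, n = 3 each). The log2 fold change was -2.02 (standard error, SE, 0.08, adjusted p = 1.05e-05 from limma). It was called under all 16 alternatives, with a log2 fold change between -2.25 and -1.96. The annotation places its 3′ end over that of *Tmem132a* on the other strand, with 1541 bases in common. *Tmem132a* had 77.7, 60.6 and 52.9 FPKM in the WT-labelled libraries and 20.8, 22.1 and 22.7 FPKM in the KO-labelled ones, so it was lower as well. Whether counting used the strand is not given in the sources used here, and without it reads from the shared stretch cannot be told apart.
*Slc15a4* (ENSMUSG00000029416, chromosome 5 from 127595664 to 127632897), whose protein is known to anchor an adaptor for IRF5 activation at the endolysosome, had 5.79, 6.49 and 5.20 FPKM in the WT-labelled libraries. In those labelled KO it had 8.33, 10.2 and 11.2 FPKM, all above the highest WT value. It rose from 5.83 ± 0.646 to 9.94 ± 1.49 FPKM (SD, n = 3 each). Its log2 fold change was 0.72 (SE 0.14, adjusted p = 0.00702 from limma), with a call under all alternatives. The ratio of *Slc15a3* to *Slc15a4* within a library does not depend on scaling between libraries. It was 32.1, 29.3 and 33.0 in the WT-labelled libraries and 5.67, 4.36 and 3.72 in the KO-labelled ones. The groups had to lie apart, because *Slc15a3* was lower and *Slc15a4* higher in every KO-labelled library than in every WT-labelled one. The ratio is therefore a description without a test. *Slc15a3* remained the more abundant of the pair in every library.

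*Slc17a5* (ENSMUSG00000049624, chromosome 9 from 78536488 to 78588041) encodes sialin, which exports free sialic acid from lysosomes. It had 9.79, 7.91 and 8.74 FPKM in the WT-labelled libraries and 19.1, 20.1 and 18.4 FPKM in the KO-labelled ones. The groups were well separated, and it rose from 8.81 ± 0.940 to 19.2 ± 0.873 FPKM (SD, n = 3 each). Its log2 fold change was 1.09 (SE 0.10, adjusted p = 0.000337 from limma). The call held under all 16 alternatives, with a range of 0.87 to 1.16.

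**Figure D2:**
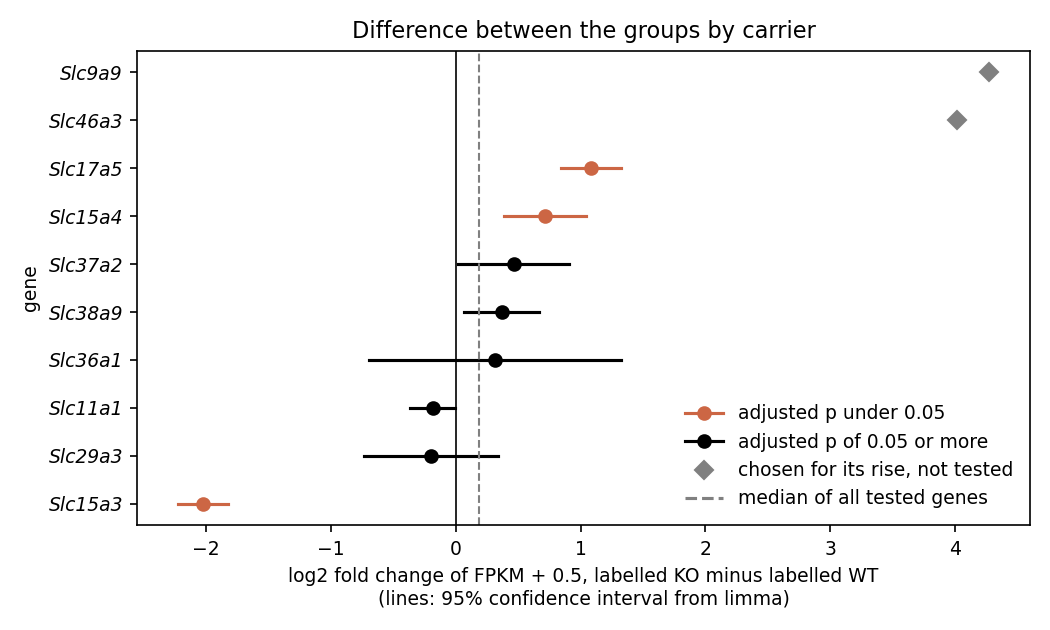
Log2 fold change of FPKM + 0.5 (labelled KO minus labelled WT) of each carrier, with limma's 95% confidence interval for the 8 tested carriers and a diamond without interval for *Slc9a9* and *Slc46a3*. The dashed line is the median of all tested genes, 0.19. *Slc15a3* lies at -2.02, *Slc15a4* and *Slc17a5* lie above the dashed line, and the intervals of *Slc29a3* and *Slc36a1* span 0.

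*Slc11a1* (ENSMUSG00000026177, chromosome 1 from 74375195 to 74386062) encodes the divalent metal transporter of the phagosome that is known for resistance to intracellular bacteria, and C57BL/6 mice are known to carry a defective allele. It was abundant in both groups, with 116, 118 and 108 FPKM in the WT-labelled libraries and 104, 97.8 and 99.1 FPKM in the KO-labelled ones. The groups did not overlap but lay close together, and the log2 fold change of -0.18 (95% interval -0.36 to -0.00446) did not pass (adjusted p = 0.0988 from limma). With median-of-ratios and upper-quartile scaling it was -0.41 and -0.40 and passed (adjusted p = 0.00708 and 0.00869 from limma), and without WT replicate 3 it passed as well (adjusted p = 0.0285 from limma).
*Slc37a2* (ENSMUSG00000032122, chromosome 9 from 37227585 to 37255738), a sugar phosphate exchanger of macrophages and osteoclasts, had 25.3, 25.9 and 16.4 FPKM in the WT-labelled libraries and 31.7, 33.5 and 27.3 FPKM in the KO-labelled ones. The KO-labelled libraries were higher without overlap, and the log2 fold change of 0.47 (95% interval 0.02 to 0.91) did not pass (adjusted p = 0.0931 from limma). It was 0.26 without WT replicate 3 and 0.24 with median-of-ratios scaling. A pseudogene on the other strand, *Gm10177*, lies within it.

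None of the 3 carriers tied to nucleosides and amino acids passed the test. *Slc29a3* (ENSMUSG00000020100, chromosome 10 from 60712072 to 60752794), the lysosomal nucleoside carrier, had 21.9, 23.0 and 14.0 FPKM in the WT-labelled libraries and 18.8, 18.9 and 13.1 FPKM in the KO-labelled ones. Replicate 3 was the lowest of each group, the groups overlapped, and the log2 fold change of -0.19 (95% interval -0.73 to 0.34) did not pass (adjusted p = 0.535 from limma). With one library left out it lay between -0.41 (without WT replicate 3) and -0.02 (without KO replicate 3), and it was -0.42 with median-of-ratios scaling. *Slc36a1* (ENSMUSG00000020261, chromosome 11 from 55204350 to 55236330), a proton-coupled carrier of small amino acids, had 20.2, 5.39 and 13.9 FPKM in the WT-labelled libraries and 15.2, 15.5 and 13.0 FPKM in the KO-labelled ones. The KO-labelled libraries lay inside the wide range of those labelled WT. Its log2 fold change of 0.32 (95% interval -0.69 to 1.32, adjusted p = 0.595 from limma) turned to -0.20 without WT replicate 2 and was 0.71 without WT replicate 1 and 0.09 with median-of-ratios scaling. *Slc38a9* (ENSMUSG00000047789, chromosome 13 from 112660751 to 112738749), the arginine sensor of mTORC1, was low, with 1.23, 1.42 and 1.09 FPKM in the WT-labelled libraries and 1.67, 1.93 and 1.66 FPKM in the KO-labelled ones. The groups did not overlap, and the log2 fold change of 0.37 (95% interval 0.07 to 0.67) did not pass (adjusted p = 0.0578 from limma). It was 0.20 with median-of-ratios and 0.12 with quantile scaling.

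In the libraries labelled WT, *Slc15a3* had the highest level (183 FPKM on average), then *Slc11a1* (114 FPKM). *Slc37a2*, *Slc29a3*, *Slc36a1* and *Slc17a5* followed, each overlapping its neighbour in this order, then *Slc15a4*, and *Slc38a9*, *Slc46a3* and *Slc9a9* came last with overlapping values near 1 FPKM. In the KO-labelled libraries, *Slc11a1* (100.2 FPKM) stood above *Slc15a3* (44.6 FPKM), and *Slc37a2* and *Slc9a9* followed with overlapping values of 30.8 and 30.4 FPKM. *Slc46a3* came next, ahead of *Slc17a5*, *Slc29a3* and *Slc36a1*, of which each overlapped the next, and *Slc15a4* and *Slc38a9* came last.
The 10 carriers together summed to 388, 381 and 341 FPKM in the WT-labelled libraries and 303, 300.5 and 279 FPKM in the KO-labelled ones. The sum was lower in all 3 KO-labelled libraries, which is given without a test because it holds *Slc9a9* and *Slc46a3*. *Slc15a3* made up 47.9%, 49.9% and 50.3% of it in the WT-labelled libraries and 15.6%, 14.9% and 15.0% in the KO-labelled ones. *Slc9a9* and *Slc46a3* together made up 0.589%, 0.684% and 0.545% and then 18.9%, 19.2% and 19.3%. *Slc11a1* made up 29.8%, 31.0% and 31.7% and then 34.2%, 32.5% and 35.5%, higher in every KO-labelled library.

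**Figure D3:**
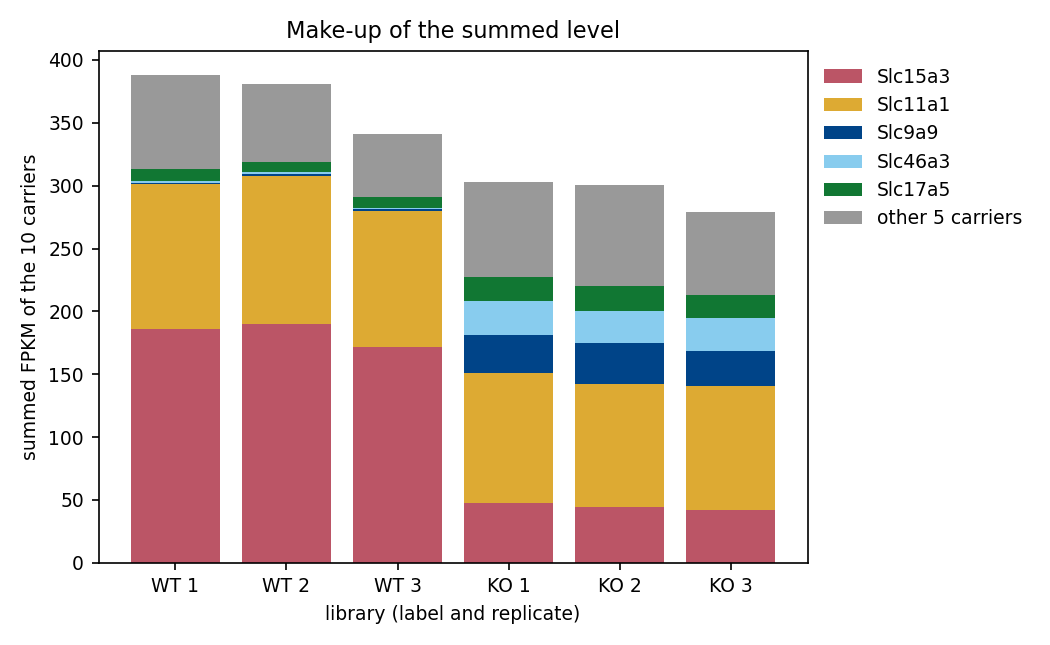
Summed FPKM of the 10 carriers in each of the 6 libraries, stacked by gene, with 5 carriers shown as one block. *Slc15a3* and *Slc11a1* fill most of the bars labelled WT, and in the KO-labelled ones the *Slc15a3* block is 15.6% or less and *Slc9a9* with *Slc46a3* 18.9% or more of the sum.

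The carriers lie on 7 chromosomes, with *Slc9a9*, *Slc37a2* and *Slc17a5* on chromosome 9 and *Slc46a3* and *Slc15a4* on chromosome 5. The nearest tested protein-coding gene on each side of each carrier, without overlap, was taken as the local background. Of these 20 genes, 10 were higher and 1 was lower in the KO-labelled libraries, with log2 fold changes between -0.80 and 1.26 and a median of 0.39. The share called was 55%, beside 37.6% of all tested genes, and with median-of-ratios scaling, tried after seeing the data, 5 were higher and 5 lower. Next to *Slc46a3*, *Pomp*, which begins the maturation of proteasomes and ends 1.98 kb away, went from 21.2 to 16.9 FPKM on average (log2 fold change -0.31, adjusted p = 0.147 from limma). Next to *Slc9a9*, *Chst2*, a sulfotransferase gene 169 kb away, fell from 6.81 to 3.69 FPKM (log2 fold change -0.80, adjusted p = 0.00076 from limma). *1190002N15Rik*, 132 kb away on the other side, rose from 4.78 to 11.5 FPKM (log2 fold change 1.18, adjusted p = 0.00011 from limma).

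The same numbered families also hold carriers of other membranes. Of 41 such paralogues, 20 were tested, 3 rose and 2 fell (25%, against 37.6% of all tested genes), with a median of -0.07. *Slc29a1*, the equilibrative nucleoside carrier of the cell surface, rose from 18.4, 15.6 and 17.4 FPKM to 32.2, 31.6 and 32.1 FPKM (log2 fold change 0.89, adjusted p = 0.00041 from limma), and *Slc38a2*, a carrier of neutral amino acids at the cell surface, fell with -0.42 (adjusted p = 0.0116 from limma). *Slc38a1* (0.75) and *Slc15a2* (-0.43) passed here, but not under 8 and 6 of the alternatives. With median-of-ratios scaling 1 paralogue rose and 7 fell. Without WT replicate 3, where 44.3% of all tested genes were called, 2 rose and 6 fell.
Of 44 other transporters, channels and membrane proteins of endosomes and lysosomes, 42 were tested, 10 rose and 6 fell (38.1%, near the 37.6% of all tested genes), with a median of 0.14. With median-of-ratios scaling 7 rose and 10 fell. *Tpcn1*, an endolysosomal cation channel, had 3.34, 3.93 and 2.16 FPKM in the WT-labelled libraries and 17.3, 16.9 and 13.6 FPKM in the KO-labelled ones (log2 fold change 2.20, adjusted p = 0.000323 from limma). *Slc26a11*, a sulfate carrier, went from 3.85, 3.35 and 2.99 to 16.5, 16.4 and 14.9 FPKM (2.08, adjusted p = 2.7e-05 from limma). *Slc2a6*, a lysosomal member of the glucose carrier family, had 10.4, 9.30 and 7.66 FPKM and then 1.33, 0.879 and 1.42 FPKM, a fall of 2.49 on the log2 scale (adjusted p = 8.6e-05 from limma). *Slc31a2*, linked to copper, fell from 51.0, 50.2 and 55.5 to 20.9, 21.3 and 21.9 FPKM (-1.27, adjusted p = 5.2e-05 from limma). Carriers with changes of over 2-fold were thus found in both directions around the 10.

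Of 37 genes of lysosomal amino acid sensing and mTORC1, the machinery of *Slc38a9* and *Slc36a1*, 36 were tested, 6 rose and none fell at an adjusted p-value under 0.05 in limma, with a median of 0.24. At an unadjusted p-value under 0.05, 0 fell. The share of 16.7% called is below the 37.6% of all tested genes. *Sesn1*, a sestrin that restrains mTORC1, stood out with 3.88, 3.07 and 4.07 FPKM in the WT-labelled libraries and 39.0, 39.8 and 43.8 FPKM in the KO-labelled ones (log2 fold change 3.31, adjusted p = 5.0e-06 from limma). *Flcn*, which activates RagC and RagD, had 15.0, 14.9 and 7.66 FPKM and then 20.9, 22.3 and 22.4 FPKM (0.84, adjusted p = 0.0358 from limma), and was not called under 7 alternatives. *Lamtor1*, the Ragulator subunit that anchors the complex to the membrane, rose from 33.0, 32.1 and 34.3 to 48.2, 46.8 and 46.7 FPKM (0.51, adjusted p = 0.00203 from limma). Without WT replicate 3, where 44.3% of all tested genes were called, 8 of the 36 rose and 2 fell. With median-of-ratios scaling 4 rose and 3 fell.
Of the 4 MiT/TFE factors, which drive lysosomal genes, *Tfeb* rose from 3.83, 3.53 and 3.24 to 6.76, 7.36 and 5.37 FPKM (log2 fold change 0.79, adjusted p = 0.00446 from limma) and *Mitf* from 8.48, 9.38 and 7.67 to 13.0, 12.9 and 12.8 FPKM (0.57, adjusted p = 0.00397 from limma). *Tfe3* (0.01, adjusted p = 0.933 from limma) and *Tfec* (0.16, adjusted p = 0.256 from limma) did not pass, and both differences turned negative with median-of-ratios, upper-quartile and quantile scaling.

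**Figure D4:**
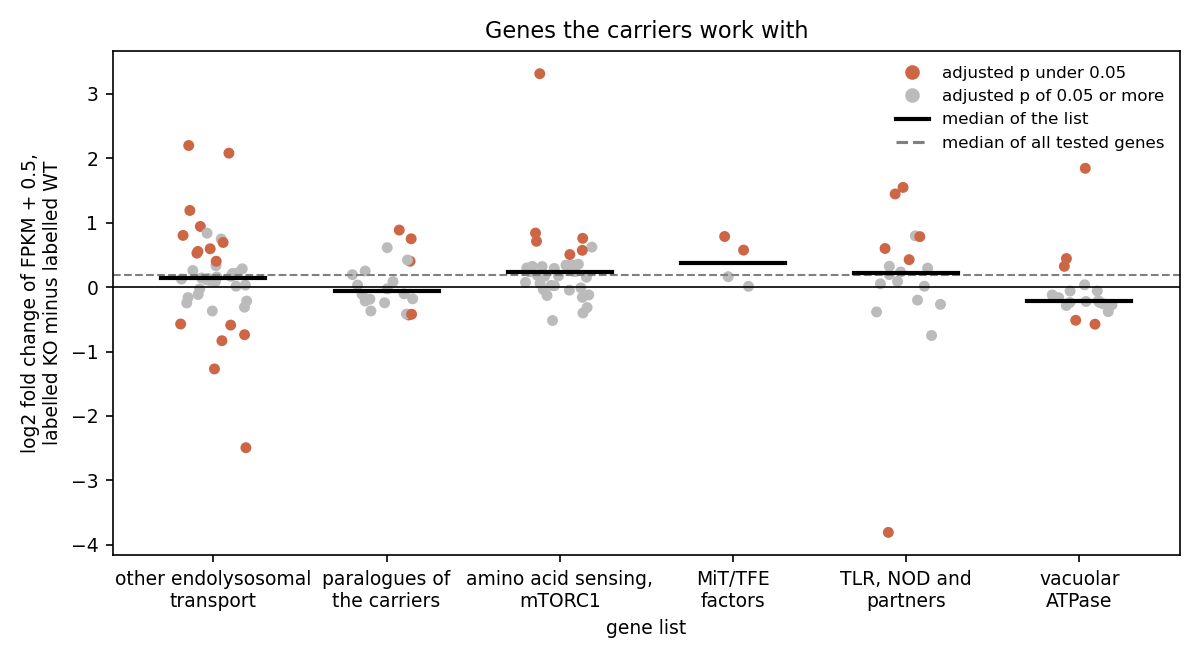
Log2 fold change of FPKM + 0.5 (labelled KO minus labelled WT) of each tested gene in 6 lists of genes the carriers work with or are related to, coloured where the adjusted p-value was under 0.05. Black bars are list medians, between -0.22 and 0.37, and the dashed line is the median of all tested genes, 0.19. *Sesn1* at 3.31 and *Irf7* at -3.81 lie farthest out.

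The endosomal Toll-like receptors, NOD receptors and partners tied to *Slc15a3*, *Slc15a4* and *Slc29a3* numbered 20, of which 18 were tested, 5 rose and 1 fell (33.3%, near the 37.6% of all tested genes), with a median of 0.21. *Tlr9*, the receptor of CpG DNA, rose from 2.29, 2.84 and 1.496 to 7.86, 7.20 and 5.35 FPKM (log2 fold change 1.45, adjusted p = 0.00281 from limma). *Pld4*, an exonuclease that degrades its ligands, rose from 28.8, 27.7 and 28.05 to 80.6, 81.5 and 88.03 FPKM (1.55, adjusted p = 1.9e-05 from limma). *Irf7*, the factor that these receptors activate for interferon production, fell from 40.5, 41.6 and 41.9 to 2.55, 2.74 and 2.19 FPKM (-3.81, adjusted p = 1.9e-06 from limma). Whether the changes of *Slc15a3* and *Slc15a4* are linked to those of *Tlr9*, *Pld4* or *Irf7* was not tested. Without WT replicate 3, where 44.3% of all tested genes were called, 8 of the 18 genes rose and 5 fell. With median-of-ratios scaling 4 rose and 3 fell.
Of 18 tested subunits of the vacuolar ATPase, 3 rose and 2 fell (27.8%, against 37.6% of all tested genes), with a median of -0.22. Isoforms of the a subunit of its membrane domain moved apart. *Atp6v0a1* rose from 13.4, 14.5 and 6.75 to 44.4, 45.2 and 33.7 FPKM (log2 fold change 1.84, adjusted p = 0.0029 from limma), while *Tcirg1*, which encodes another isoform of the same subunit, fell from 145, 143 and 124 to 87.6, 94.6 and 92.8 FPKM (-0.58, adjusted p = 0.00327 from limma). *Atp6v1b2* (0.44) and *Atp6v0c* (-0.51) also passed, *Atp6v0c* not under 7 of the alternatives. *Atp6v1b2* did not with median-of-ratios or upper-quartile scaling, where 1 subunit rose and 8 or 7 fell.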

How the data were processed

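The values are FPKM as deposited by the authors, with one column for each library. The submitters' processing notes name fastp 0.17.1, HISAT2 2.1.0, DESeq2 1.18.1 and R 3.4.3 without their roles. The annotation, the genome build and the tool that made the FPKM are not given in the sources used here, and the labels and the methods differ on the reagents for extraction, the kit and the sequencer. Symbols and positions came from GENCODE M21 (GRCm38), in which 99.7% of the 55335 identifiers were found. Each column carried one sample's title.

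Because FPKM is relative to the total of a library, changes in abundant genes shift the rest. In 34186 genes with 1 annotated transcript, FPKM times length piled up at one step per library. The share of low values at most 0.1 from a whole multiple was 39.7% to 43.5%, where chance gives 20%. Fragments could not be restored from this, which left no count to test. Fragment numbers are therefore approximate.

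log2(FPKM + 0.5) was fitted with limma 3.58.1 in R 4.3.3 (lmFit, eBayes with trend) without covariates. On simulated data with 13367 genes, 65 of 100 genes changed by 1 and 92 of 100 changed by 2 on the log2 scale were recovered, with 6 false calls. Only these genes differed in the simulation, with independent normal noise, while 37.6% of tested genes were called in the libraries. The recovery and false calls of this comparison are therefore not known from it. The carriers and gene lists were chosen with earlier results of these data known. Besides the carriers, *Cd177*, the 4 MiT/TFE factors and cell type markers, each list's 2 largest rises and 2 largest falls were named (called, a mean of at least 1 FPKM, groups without overlap). *Lamtor1*, *Tmem132a*, *Gm10177* and the genes next to *Slc9a9* and *Slc46a3* were picked out after their values were seen. *Slc66a1* and *Slc49a4* were matched through older symbols, and *Tasl* and *Atp6v0a3* were not matched. Promoter sequences are from RefSeq, with 9 of the 10 carriers matched. Protein sequences were not used here, and 1 gene of the lists is not reported here by name.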

Additional observations from a re-analysis of the deposited data

How the results depend on the processing

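The 16 alternatives were pseudocounts of 0.1 and 1, no filter or a mean of at least 5 FPKM, 4 ways of scaling (median-of-ratios, upper-quartile, quantile, TPM), robust eBayes, a block for the replicate number, and each library left out. *Slc15a3*, *Slc15a4* and *Slc17a5* kept direction and call under all of them. Over 35 genes and 553 values, 508 did, 30 lost and 5 gained a call, and 10 changed sign. Most of these genes were named for large called changes, and *Slc9a9* and *Slc46a3* are among them. The count therefore does not measure how stable the results are in general. The labels do not say that replicate numbers mark a shared batch, and libraries of the same number deviated together with correlations of 0.116, 0.036 and 0.264 for numbers 1, 2 and 3, so they were not taken as pairs. *Slc38a9* could not be tested with a mean of at least 5 FPKM.

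With the replicate block, under which 44.4% of all tested genes were called instead of 37.6%, 5 of the 8 carriers were called instead of 3, *Slc37a2* (adjusted p = 0.0195 from limma) and *Slc38a9* (0.0479) being added, and 11 genes of amino acid sensing and 10 of the vacuolar ATPase. With a mean of at least 5 FPKM, 53 of 95 other *Slc* genes were called instead of 83 of 170, and 3 of 9 paralogues instead of 5 of 20. Of all genes tested with this filter, 40.1% were called. With median-of-ratios scaling (32.3% of all tested genes called) 8 paralogues and 9 vacuolar ATPase genes were called, and with upper-quartile scaling (32.0%) 8 of the latter. Leaving out one library gave 2 to 8 paralogues, 5 to 10 genes of amino acid sensing, 5 to 13 of the Toll-like receptor list and 3 to 5 of the vacuolar ATPase. The upper counts of the first 3 lists came without WT replicate 3, where 44.3% of all tested genes were called. With one library left out, that share ran from 26.1% (without KO replicate 1) to this 44.3%. *Slc36a1* then lay between -0.202 (without WT replicate 2) and 0.705 on the log2 scale. *Tfe3* was -0.209, -0.195 and -0.0654 and *Tfec* -0.0434, -0.0306 and -0.0378 with median-of-ratios, upper-quartile and quantile scaling, and *Tfe3* lay between -0.0392 and 0.0669 with one library left out. The cause of these shifts was not tested. At this depth low genes such as *Slc38a9* are the least precise.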

Other observations

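The wider class of solute carriers held larger falls than that of *Slc15a3*. Of 351 other genes with a numbered *Slc* symbol, 170 were tested, 49 rose and 34 fell (48.8% called, against 37.6% of all tested genes), with a median log2 fold change of 0.09. With median-of-ratios scaling 23 rose and 52 fell. *Slc7a11*, the cystine/glutamate exchanger of the cell surface, had 41.5, 44.7 and 33.6 FPKM in the WT-labelled libraries and 1.45, 1.41 and 1.28 FPKM in the KO-labelled ones (log2 fold change -4.42, adjusted p = 2.4e-06 from limma). *Slc6a12*, a carrier of betaine and GABA, had 10.4, 11.5 and 9.74 FPKM and then 0.0954, 0.141 and 0.0641 FPKM (-4.20, adjusted p = 2.1e-06 from limma). In the other direction, *Slc2a8*, an intracellular sugar carrier, rose from 2.13, 1.77 and 1.64 to 8.37, 7.86 and 7.44 FPKM (1.84, adjusted p = 5.3e-05 from limma). *Slc7a11* and *Slc6a12* kept direction and call under the 16 alternatives, and *Slc2a8* under the 15 in which it was tested. All were named for the size of their change, so this is no independent check.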
